A study of Mus musculus with 12 samples.

Results

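The transcriptome of day 3 cells that did not carry the Eomes reporter signal (Eo-) was compared with that of undifferentiated embryonic stem cells (ESC). The comparison rests on 8 of the 12 RNA-Seq libraries of the series, 4 labelled as Eomes-negative at day 3 and 4 labelled as ESC at day 0. It covers loci that the transcript annotation of the study ties to a named reference gene, of which 15223 were among the 17936 tested loci and the 80012 counted ones. Every library came from 1 mouse ESC line of C57BL/6 background, EomesEGFP, in which an EGFP cassette sits at the transcription start of the endogenous Eomes gene, so that all groups carry the same modified allele. ESCs were grown on mouse embryonic fibroblast feeders in serum medium with leukemia inhibitory factor (LIF). Eo- cells came from embryoid bodies made by hanging drop in a serum medium whose description lists no LIF, and were sorted at day 3 for the absence of green fluorescence. The sorted fluorescent cells of the same day (Eo+) make up the other 4 libraries, which enter the filter on low values and the estimate of the spread, and whose levels are given to place those of Eo-. The replicates are numbered 1, 2, 5 and 6, and the methods describe 4 differentiation sets of the single line, so p-values measure the spread between these libraries.

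Mouse ESCs kept with LIF resemble the naive epiblast of the blastocyst before implantation. When LIF is withdrawn they leave this state by way of a formative and then a primed epiblast state, in which the naive transcription factors Zfp42, Esrrb, Klf4 and Tfcp2l1 are switched off, Pou5f1 is kept, and Otx2, Fgf5, Pou3f1 and the de novo DNA methyltransferases are switched on. Part of the primed epiblast then forms the primitive streak under Nodal and Wnt signals, with T, Mixl1 and Eomes among the first genes induced, while epiblast that escapes these signals can turn to neural ectoderm. The question put to the data was which of these states the cells without the reporter had reached.

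Levels are given as CPM, counts per 1000000 counts of a library, with library sizes scaled by the trimmed mean of M values (TMM), as mean ± SD over 4 libraries. Log2 fold changes compare Eo- with ESC unless stated, with their standard error (SE) from limma, and a locus was called at a Benjamini-Hochberg adjusted p of at most 0.05 over all 17936 tested loci. Libraries held 648413022 to 837308168 locus counts, at which 3 counts amounted to at most 0.00485 CPM. Of all tested loci, 62.2% were called between Eo- and ESC, 30.9% higher and 31.3% lower in Eo-. Among the 15223 loci with a reference gene name 4977 were higher and 4410 lower, 1787 and 1834 of them by at least 2-fold, and the median log2 fold change over all tested loci was 0.016. A called gene is therefore common in this comparison, and the counts in each gene list are to be read against these shares. Counts of Eo+ against Eo- are to be read in the same way against 47.7% called in that comparison, with Eo+ higher in 23.0% and lower in 24.6% of the tested loci.

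Eomes itself (XLOC_071772, chromosome 9, 118477475 to 118488290, plus strand of mm10) was the gene used for the sort. It reached 37.9, 59.4, 50.8 and 44.8 CPM in ESC replicates 1, 2, 5 and 6, 139, 174, 120.4 and 134 CPM in the Eo- replicates and 463, 665, 463 and 595 CPM in the Eo+ replicates. The groups did not overlap, and Eo- stood between the others. The rise from ESC to Eo- was 1.56 ± 0.17 on the log2 scale (adjusted p = 3.0e-06). The further step from Eo- to Eo+ was 1.94 ± 0.15. Its direction was set in advance by the sort on the reporter, so it is given as a size only. Cells sorted as negative thus held Eomes RNA above the ESC level. In bulk libraries fewer cells expressing a gene and less RNA per cell cannot be told apart.

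Fibroblast transcripts in ESC and 1 Eo- library that stood apart accompany several of the results below. Transcripts of fibroblasts were high in ESC, which had been grown on feeders, and no step to remove feeders is described for the RNA samples. The 13 tested genes of a feeder fibroblast list summed to 233 to 816 CPM in ESC and to 58.9 to 76.6 CPM in Eo- libraries. Collagen type I alpha 1, Col1a1, was at 96.5, 54.7, 80.7 and 33.1 CPM in ESC and at 2.75, 1.81, 1.47 and 1.68 CPM in Eo-. Mmp3, a matrix protease of fibroblasts, was at 0 in all 4 Eo- libraries. Of the 13 genes 1 rose, 11 fell and 1 passed the test in neither direction, with a median log2 fold change of -4.65. Eo- replicate 1 stood apart from the other Eo- libraries in transcripts of blood and endothelium. It held 108 loci at least 3-fold above the next Eo- library, against 0 in each of Eo- replicates 2, 5 and 6. Eo+ replicate 1 held 78 loci at least 3-fold above the next Eo+ library, against 0 to 7 in the other Eo+ libraries. Fold changes without Eo- replicate 1 are given for several genes in which it was the highest.

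Naive pluripotency genes fell throughout in Eo- cells. All 16 genes of the list were called lower, the median log2 fold change was -3.18, and the groups had no overlap in any of the 16, beside 55.8% of all tested loci without overlap. Their summed level was 3811 to 5008 CPM in ESC and 701 to 856 CPM in Eo- libraries. Zfp42 (XLOC_068810, chromosome 8, 43294239 to 43307181, minus strand), also known as Rex1 and a standard marker of the naive state, was at 514, 558, 425 and 594 CPM in ESC and at 51.6, 48.7, 43.1 and 34.2 CPM in Eo-. Every Eo- library lay far below the lowest ESC library, and Zfp42 fell by 3.56 ± 0.12 (adjusted p = 7.5e-10). Esrrb, an orphan nuclear receptor of the naive network, fell from 458 ± 101 to 46.1 ± 9.94 CPM (log2 fold change -3.31 ± 0.19, adjusted p = 1.8e-08).

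The Krüppel-like factors Klf4 and Klf2 fell by different amounts. Klf4 was at 187, 223, 171 and 202 CPM in ESC and at 16.3, 8.95, 6.38 and 6.53 CPM in Eo- libraries, with the highest Eo- value in replicate 1. It fell by 4.45 ± 0.24 (adjusted p = 1.2e-08), and Klf2 fell by 2.89 ± 0.22 (adjusted p = 1.6e-07). The grainyhead-like factor Tfcp2l1, whose locus also holds the small RNA gene Gm23497, fell by 4.19 ± 0.18 (adjusted p = 2.4e-09). Nanog, the homeobox factor that guards the naive state but is also used in the later epiblast, was at 342, 489, 489.9 and 594 CPM in ESC and at 185, 182, 179 and 162 CPM in Eo-. The Eo- values lay close together, and Nanog fell by 1.41 ± 0.18 (adjusted p = 1.8e-05), the smallest change in the list. The growth factor gene Fgf4 fell by 1.63 ± 0.22, and Dppa3, a maternal factor that protects DNA from loss of methylation, fell by 2.21 ± 0.16.

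The fall was not complete. Relative to Eo-, Eo+ cells were lower still in 13 of the 16 naive genes and higher in 1, beside 24.6% and 23.0% of all tested loci. Zfp42 stood at 4.53 ± 0.455 CPM in Eo+ libraries, below the 44.4 CPM of Eo- (Eo+ against Eo-, log2 fold change -3.29 ± 0.21, adjusted p = 1.6e-07). Dppa3 was at 7.54, 6.66, 7.95 and 5.58 CPM in Eo- and at 0.131, 0.106, 0.250 and 0.0663 CPM in Eo+ libraries, a log2 difference of -5.78 ± 0.39, adjusted p = 2.4e-07. For Klf4 the log2 difference was 0.06 ± 0.31, adjusted p = 0.89. The exception was Tbx3, a T-box factor of naive cells that is used again in mesoderm and endoderm. Its level was 74.6, 98.3, 59.6 and 74.6 CPM in ESC, 9.38, 4.27, 3.08 and 3.51 CPM in Eo- and 85.3, 47.1, 21.9 and 71.98 CPM in Eo+ libraries. Tbx3 fell by 4.04 ± 0.50 from ESC to Eo- and was higher in Eo+ than in Eo- by 3.45 ± 0.51, adjusted p = 1.1e-04.

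Core pluripotency genes, which the naive and the primed epiblast share, changed in both directions. Of 12 genes 3 rose, 6 fell and 3 passed the test in neither direction, with a median log2 fold change of -0.25. Pou5f1 (XLOC_030258, chromosome 17, 35506018 to 35510772, plus strand), which encodes Oct4, was at 1201, 1545, 1094 and 1339 CPM in ESC and at 862, 1248, 1046 and 1138 CPM in Eo-. The groups overlapped, and the log2 fold change was -0.27 ± 0.18 (adjusted p = 0.2). Utf1, a chromatin factor of undifferentiated cells, was at 298 ± 19.3 CPM in ESC and 299 ± 59.0 CPM in Eo- (log2 fold change -0.02 ± 0.20, adjusted p = 0.94). Eo+ cells held less of both, with log2 differences of -1.04 ± 0.18, adjusted p = 4.1e-04 for Pou5f1 and -4.84 ± 0.31, adjusted p = 1.6e-07 for Utf1. Sall4, a zinc finger factor of pluripotent cells, had a log2 fold change of -0.08 ± 0.08 (adjusted p = 0.41) between Eo- and ESC.

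The members that passed the test split by gene. Sox2, on a locus that holds 5 further annotated genes, fell by 1.25 ± 0.16 (adjusted p = 1.9e-05). Dppa2 and Dppa4, which together prime chromatin for early embryonic genes, fell by 2.39 ± 0.06 and 1.20 ± 0.08 (adjusted p = 6.7e-11 and 6.7e-08). Foxd3, a forkhead factor of the epiblast, was at 32.1, 20.4, 29.1 and 22.9 CPM in ESC and at 43.6, 63.1, 62.2 and 52.4 CPM in Eo-. It rose without overlap by 1.08 ± 0.23 (adjusted p = 0.001). Lin28a, an RNA-binding protein that blocks the maturation of let-7, rose by 0.30 ± 0.10 (adjusted p = 0.018), a call that was lost with DESeq2 and without ESC replicate 2 or Eo- replicate 6.

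**Figure D1:**
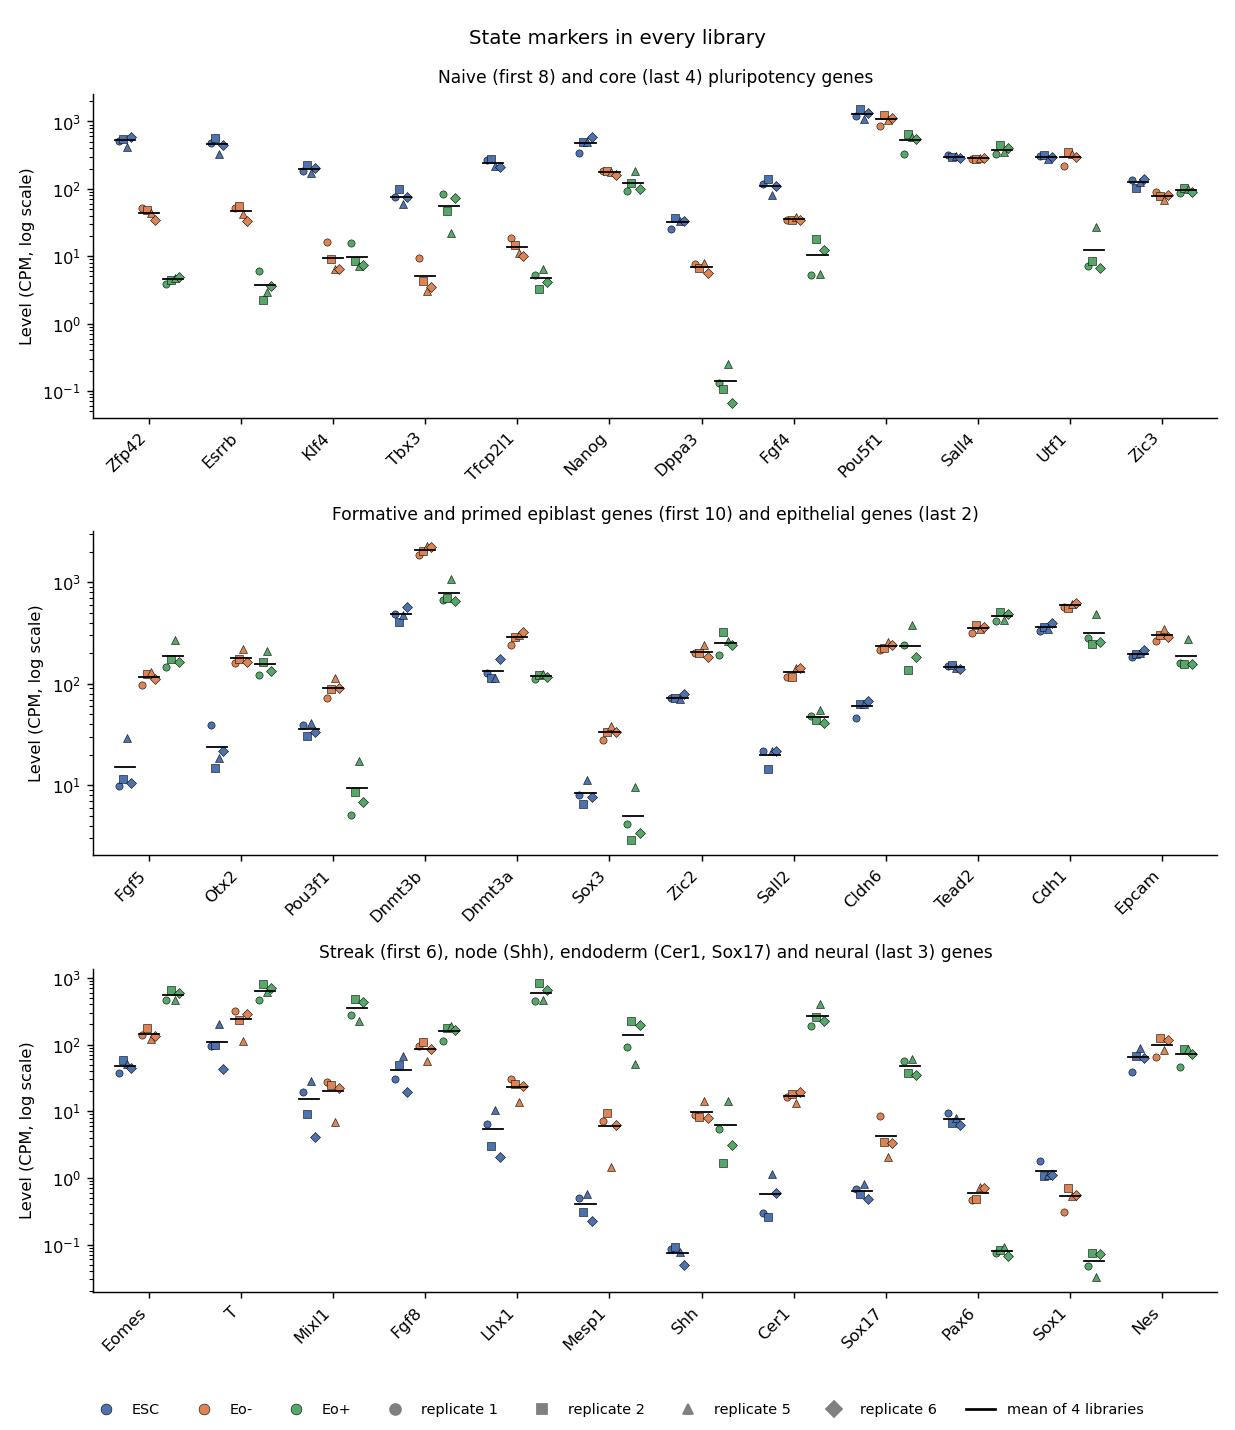
Level of state markers in every library, in CPM on a log axis, for ESC, Eo- and Eo+ (colour), with the replicate number as the point shape and the mean of 4 libraries as a bar. Naive genes such as Zfp42 fall from ESC to Eo-, Pou5f1, Sall4 and Utf1 overlap between ESC and Eo-, and Fgf5, Otx2, Dnmt3b and Sall2 are higher in all 4 Eo- libraries than in any ESC library.

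Genes of the formative and primed epiblast rose in Eo- cells. Of the 14 genes in the list 12 rose, the other 2 were not called, and the median log2 fold change was 1.41. Their summed level was 1124 to 1359 CPM in ESC and 3579 to 4324 CPM in Eo- libraries. Fgf5 (XLOC_053425, chromosome 5, 98253728 to 98475741, plus strand), a growth factor and the classical marker of the epiblast after implantation, was at 9.76, 11.7, 28.9 and 10.52 CPM in ESC and at 97.1, 126, 132 and 112 CPM in Eo-. ESC replicate 5 was the highest of its group and still far below any Eo- library, and Fgf5 rose by 3.08 ± 0.29 (adjusted p = 1.2e-06). Otx2, the homeobox factor that directs the exit from the naive state, was at 39.0, 14.9, 18.6 and 21.9 CPM in ESC and at 161, 176, 218 and 166 CPM in Eo-, and rose by 3.01 ± 0.24 (adjusted p = 2.8e-07). Sall2, a zinc finger factor, rose from 19.9 ± 3.68 to 130.1 ± 14.9 CPM (log2 fold change 2.72 ± 0.14, adjusted p = 7.0e-09).

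Smaller rises were seen in further members. Pou3f1, a POU factor of the epiblast also called Oct6, was at 39.1, 30.7, 41.1 and 33.8 CPM in ESC and at 72.1, 88.6, 115 and 91.6 CPM in Eo- libraries (log2 fold change 1.33 ± 0.20, adjusted p = 5.6e-05). Zic2, a zinc finger factor that binds primed enhancers, rose by 1.49 ± 0.14, and Sox3, a factor of later epiblast and neural plate, rose by 2.01 ± 0.23. The tight junction gene Cldn6 rose by 1.99 ± 0.25. Grhl2, which keeps epithelial enhancers open, and Etv4, a target of FGF signalling, were the 2 members that were not called.

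Relative to Eo+, some of these genes had their highest level in Eo-. Pou3f1 was at 5.16, 8.51, 17.2 and 6.92 CPM in Eo+ libraries, below every Eo- library, a log2 difference of -3.42 ± 0.26, adjusted p = 6.3e-07. Sox3 was lower in Eo+ than in Eo- (log2 difference -2.91 ± 0.26, adjusted p = 2.2e-06). Fgf5 was higher in Eo+, at 189 ± 56.3 CPM against 117 CPM in Eo- (log2 fold change 0.66 ± 0.22, adjusted p = 0.022), and the log2 difference for Otx2 was -0.21 ± 0.20, adjusted p = 0.4. In all, 3 members of the list were higher and 6 lower in Eo+ than in Eo-, beside 23.0% and 24.6% of all tested loci. With the replicate number as a block 4 were higher and 6 lower.

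Genes that set and remove DNA methylation changed in both directions. Dnmt3b (XLOC_039426, chromosome 2, 153649384 to 153687730, plus strand), a de novo methyltransferase that is strongly expressed in the epiblast after implantation, was at 493, 406, 475 and 575 CPM in ESC and at 1868, 2024, 2279 and 2236 CPM in Eo- libraries. It rose by 2.12 ± 0.14 (adjusted p = 6.9e-08), and Dnmt3a rose by 1.14 ± 0.12 (adjusted p = 3.7e-06). Dnmt3l, a catalytically inactive cofactor whose locus is joined to Icosl, fell by 1.96 ± 0.11 (adjusted p = 2.1e-08). The dioxygenase Tet2, which oxidises methylcytosine and is high in naive cells, was at 32.2, 40.9, 23.8 and 44.9 CPM in ESC and at 4.46, 3.42, 2.75 and 2.38 CPM in Eo-, and fell by 3.43 ± 0.26 (adjusted p = 1.9e-07). Tet1, on a locus shared with the small RNA gene Gm26479, fell by 1.81 ± 0.09. Tet3, a dioxygenase of the same family, rose by 1.28 ± 0.17 (adjusted p = 1.8e-05). Of the 8 genes 3 rose, 3 fell and 2, the maintenance enzyme Dnmt1 and its partner Uhrf1, were not called, with a median of -0.01 that changes sign with the scaling of the libraries. Dnmt3a and Dnmt3b were lower in Eo+ than in Eo-, with log2 differences of -1.28 ± 0.12, adjusted p = 3.9e-06 and -1.46 ± 0.14, adjusted p = 3.9e-06.

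Epithelial genes rose in Eo- cells. Of 12 genes 8 rose, 1 fell and 3 passed the test in neither direction, with a median log2 fold change of 0.66. E-cadherin, Cdh1, the adhesion molecule of epithelial cells, was at 334, 364, 344 and 396 CPM in ESC and at 571, 556, 611 and 625 CPM in Eo- libraries. Each Eo- library exceeded every ESC library, with a rise of 0.72 ± 0.16 (adjusted p = 0.0014). Claudin 7, Cldn7, rose from 23.4 ± 6.24 to 117 ± 15.0 CPM (log2 fold change 2.36 ± 0.24, adjusted p = 2.3e-06), and claudin 3, Cldn3, rose by 2.03 ± 0.35. The polarity gene Crb3 and the junction gene Ocln rose by 1.96 ± 0.26 and 1.65 ± 0.23. The keratin Krt8 was at 82.9, 261, 207 and 72.6 CPM in ESC and at 114, 120.0, 86.8 and 124 CPM in Eo-, with ESC spread wider than Eo- and a log2 fold change of -0.29 ± 0.35 (adjusted p = 0.49). Eo+ cells were lower than Eo- in 8 of the 12 genes and higher in 2, with a log2 difference of -0.95 ± 0.16, adjusted p = 3.1e-04 for Cdh1.

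Genes of mesenchyme and of the epithelial to mesenchymal transition (EMT) did not move together. Of 10 genes 2 rose, 4 fell and 4 passed the test in neither direction, with a median log2 fold change of 0.14. The transcription factor Snai1, which represses Cdh1, was at 10.8, 10.8, 11.9 and 4.65 CPM in ESC, 15.0, 16.9, 8.55 and 15.2 CPM in Eo- and 70.6, 165, 47.7 and 154 CPM in Eo+ libraries. ESC and Eo- overlapped (log2 fold change 0.58 ± 0.54, adjusted p = 0.37), and Eo+ was higher than Eo- by 2.82 ± 0.43, adjusted p = 1.3e-04. Vimentin, Vim, an intermediate filament of mesenchymal cells, fell by 1.16 ± 0.28 (adjusted p = 0.0025). Its ESC values were 504, 396, 756 and 313 CPM, highest in replicate 5 and lowest in replicate 6 like the summed feeder list, whose part in this fall was not tested. N-cadherin, Cdh2, was at 19.6 ± 9.59 CPM in ESC and 31.6 ± 6.38 CPM in Eo- (log2 fold change 0.79 ± 0.30, adjusted p = 0.034), a call that was lost with edgeR, without the filter and when any of 5 single libraries was left out.

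Components and targets of the LIF pathway fell. LIF signals through its receptor Lifr and the shared subunit Il6st to the kinase Jak1 and the transcription factor Stat3, which induces Socs3, Bcl3, Pim1, Pim3 and Junb. Of 10 genes 9 fell, the median log2 fold change was -2.11, and Jak1 was not called, though it was called higher with the replicate number as a block in the fit (0.14 ± 0.05, adjusted p = 0.03). Socs3, the feedback inhibitor of the pathway, was at 112, 113, 89.5 and 50.1 CPM in ESC and at 6.32, 8.49, 6.70 and 6.57 CPM in Eo- libraries. ESC replicate 6 was the lowest of its group, and the groups did not overlap (log2 fold change -3.65 ± 0.29, adjusted p = 2.4e-07). Bcl3, a co-regulator of NF-kappaB and a target of Stat3, was at 27.9, 39.9, 36.5 and 30.5 CPM in ESC and at 1.06, 1.02, 0.845 and 0.620 CPM in Eo-, and fell by 5.26 ± 0.23 (adjusted p = 2.7e-09).

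The LIF receptor subunits Lifr and Il6st fell by smaller amounts than Stat3. Stat3 fell from 132 ± 16.5 to 27.8 ± 6.77 CPM (log2 fold change -2.27 ± 0.16, adjusted p = 1.2e-07), and Lifr from 40.6 ± 4.23 to 26.0 ± 1.82 CPM (log2 fold change -0.64 ± 0.12, adjusted p = 3.3e-04). Il6st fell by 0.74 ± 0.16 (adjusted p = 0.0012). The kinases Pim1 and Pim3 fell by 2.14 ± 0.13 and 1.97 ± 0.13, and Junb by 2.08 ± 0.21. Osmr, the receptor subunit for oncostatin M, which fibroblasts also express, fell by 3.84 ± 0.49, and its highest ESC value of 3.42 CPM was in replicate 1. Between Eo+ and Eo- the log2 difference was 0.07 ± 0.36, adjusted p = 0.89 for Socs3 and -0.81 ± 0.33, adjusted p = 0.055 for Bcl3, and with the replicate number as a block Bcl3 was called lower in Eo+ (-0.80 ± 0.20, adjusted p = 0.0064).

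**Figure D2:**
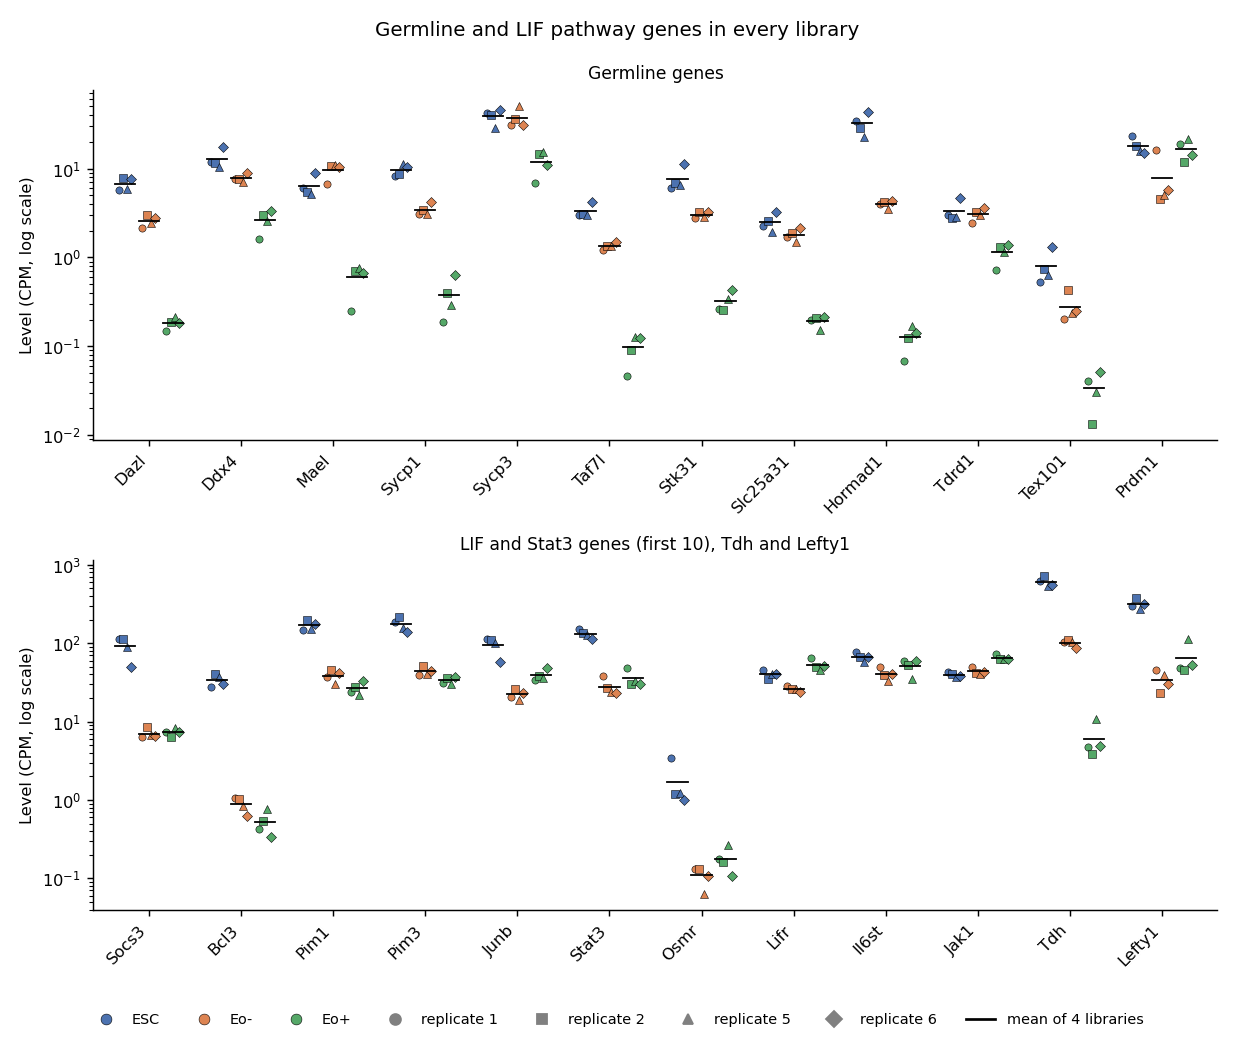
Level of 12 of the 13 germline genes (upper) and of the LIF pathway genes with Tdh and Lefty1 (lower) in every library, in CPM on a log axis, with groups as colours, replicate numbers as shapes and means as bars. Germline genes step down from ESC to Eo- to Eo+ in most cases, whereas Socs3 overlaps between Eo- and Eo+ at levels far below ESC.

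Germline genes were mostly lower in Eo- than in ESC and lower again in Eo+. Many of them are silenced by promoter DNA methylation when the epiblast implants, and the repressive complex that holds them off in ESCs binds the E-box CACGTG through its Mga and Max subunits. This motif was found, on either strand, within 250 bases before an annotated start in 9 of the 13 germline genes (69.2%), beside 1854 of the 27025 genes of the RefSeq promoter table (6.86%). It was chosen for display from 11 motifs searched because of this count, and a match is a description of the sequence, not of binding. The windows below are 80 bases of RefSeq sequence upstream of a start (build GRCm38.p6), written 5′ to 3′ on the strand of the gene, with CACGTG in capitals. They are shown so that the motif can be seen in the 9 genes of the list that hold it.
Hormad1 (chr3:95559599-95559678, plus strand): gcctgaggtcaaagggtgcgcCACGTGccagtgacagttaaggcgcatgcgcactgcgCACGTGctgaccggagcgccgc
Sycp3 (chr10:88459507-88459586, plus strand): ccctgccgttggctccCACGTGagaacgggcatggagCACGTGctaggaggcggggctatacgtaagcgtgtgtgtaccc
Stk31 (chr6:49395447-49395526, plus strand): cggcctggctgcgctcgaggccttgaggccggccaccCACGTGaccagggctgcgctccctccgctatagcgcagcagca
Taf7l (chrX:134476497-134476576, minus strand): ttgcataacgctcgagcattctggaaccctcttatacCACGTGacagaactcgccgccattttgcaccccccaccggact
Ddx4 (chr13:112652311-112652390, minus strand): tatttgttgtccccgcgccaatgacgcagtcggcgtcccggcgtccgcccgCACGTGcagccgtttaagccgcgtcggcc
Sycp1 (chr3:102936152-102936231, minus strand): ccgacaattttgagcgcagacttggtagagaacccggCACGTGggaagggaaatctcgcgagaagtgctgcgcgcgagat
Mael (chr1:166238915-166238994, minus strand): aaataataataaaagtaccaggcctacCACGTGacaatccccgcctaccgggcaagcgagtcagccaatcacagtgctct
Slc25a31 (chr3:40708741-40708820, plus strand): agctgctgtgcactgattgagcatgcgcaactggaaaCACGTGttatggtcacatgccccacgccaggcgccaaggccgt
Tdrd1 (chr19:56826129-56826208, plus strand): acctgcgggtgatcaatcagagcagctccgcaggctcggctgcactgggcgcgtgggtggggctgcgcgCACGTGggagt

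Hormad1 and Sycp3 hold 2 copies of the motif, and the other 7 hold 1. All 9 genes were lower in Eo+ than in Eo-, but from ESC to Eo- 6 fell, 2 were not called and 1 rose. Hormad1, which marks unsynapsed chromosomes in meiosis, was at 34.4, 28.4, 22.7 and 43.3 CPM in ESC, 3.98, 4.22, 3.50 and 4.30 CPM in Eo- and 0.0688, 0.124, 0.171 and 0.141 CPM in Eo+ libraries. It fell from ESC to Eo- by 2.96 ± 0.22 (adjusted p = 1.4e-07) and stood lower in Eo+, with a log2 difference of -5.06 ± 0.48, adjusted p = 3.2e-06. Sycp3, a component of the synaptonemal complex, was at 42.3, 40.4, 28.7 and 45.5 CPM in ESC and at 30.7, 36.5, 50.6 and 31.1 CPM in Eo- libraries. The groups overlapped (log2 fold change -0.09 ± 0.20, adjusted p = 0.72), although Eo+ was lower than Eo- with a log2 difference of -1.67 ± 0.25, adjusted p = 1.1e-04. Tdrd1, of the piRNA pathway, likewise had a log2 fold change of -0.08 ± 0.21 (adjusted p = 0.75) between Eo- and ESC and was lower in Eo+ than in Eo- (log2 difference -1.46 ± 0.24, adjusted p = 2.2e-04).

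The genes with the other promoters shown changed by smaller amounts than Hormad1. Stk31, a kinase of male germ cells, Taf7l, a subunit of the germ cell transcription machinery, and Sycp1, of the synaptonemal complex, fell by 1.28 ± 0.19, 1.29 ± 0.18 and 1.47 ± 0.19. Ddx4, the RNA helicase known as Vasa, fell by 0.68 ± 0.18 (adjusted p = 0.0048). Slc25a31, an ADP and ATP carrier of germ cells, fell by 0.44 ± 0.18 (adjusted p = 0.043), a call that was lost in 10 of 17 alternatives. Mael, which acts in piRNA silencing, was the only called rise of the list, by 0.61 ± 0.23 (adjusted p = 0.037), with overlapping groups and a call that was lost with edgeR, DESeq2, its size factors, no filter and when any of 6 single libraries was left out. Over the 13 germline genes 1 rose, 10 fell and 2 passed the test in neither direction, with a median log2 fold change of -1.29. Dazl, an RNA-binding protein of germ cells without the motif in its window, was at 5.77, 7.88, 5.87 and 7.61 CPM in ESC, 2.12, 2.99, 2.47 and 2.80 CPM in Eo- and 0.148, 0.185, 0.216 and 0.183 CPM in Eo+ libraries. Eo+ was lower than Eo- in 11 of the 13 genes and higher in 1.

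That 1 was Prdm1, a repressor that specifies primordial germ cells and is also used in endoderm. Its level was 23.0, 17.8, 15.8 and 14.9 CPM in ESC and 16.2, 4.52, 4.99 and 5.70 CPM in Eo- libraries, where replicate 1 lay within the ESC range and the other 3 below it. Prdm1 fell by 1.37 ± 0.32 (adjusted p = 0.0021), and without Eo- replicate 1 the log2 fold change was -1.81 ± 0.24, adjusted p = 4.4e-05.

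Transcripts of the 2-cell-like state were nearly lost. In ESC cultures a small share of cells passes through this state, marked by the Zscan4 cluster, and near-identical members of the cluster share reads, so that single copies are uncertain. All 7 genes of the list fell, their median log2 fold change was -5.27, and their summed level went from 27.7 to 64.1 CPM in ESC to 0.701 to 1.84 CPM in Eo- libraries. Zscan4c was at 8.13, 16.5, 10.9 and 19.7 CPM in ESC and at 0.227, 0.212, 0.387 and 0.517 CPM in Eo-. The groups were far apart, and Zscan4c fell by 5.36 ± 0.41 (adjusted p = 2.0e-07).

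Early primitive streak genes were partly raised in Eo- cells. Of 15 genes 8 rose, 2 fell and 5 passed the test in neither direction, with a median log2 fold change of 1.15. The groups did not overlap in 6 of the 15 genes, beside 55.8% of all tested loci, and the summed level was 287 to 619 CPM in ESC and 402 to 788 CPM in Eo-, where replicate 5 lay within the ESC range. T (XLOC_029559, chromosome 17, 8432187 to 8442496, plus strand), the T-box factor Brachyury, was at 96.1, 99.3, 203 and 43.4 CPM in ESC and at 323, 237, 114 and 282 CPM in Eo- libraries. ESC replicate 5 was high and Eo- replicate 5 low, so that the groups overlapped, and the rise was 1.21 ± 0.40 (adjusted p = 0.017). This call was lost without ESC replicate 6 or without Eo- replicate 1, with an adjusted p of up to 0.056. Replicate 5 showed the same pattern in Evx1, a homeobox gene of the posterior streak, at 8.63, 3.99, 11.2 and 1.83 CPM in ESC and 32.8, 24.1, 6.20 and 26.4 CPM in Eo-. Evx1 rose by 1.87 ± 0.70 (adjusted p = 0.033), and lost its call when any of 5 single libraries was left out. Fgf8, which is needed for cells to leave the streak, rose by 1.15 ± 0.31 (adjusted p = 0.0056).

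Other members of the list rose from low levels. Mesp1, a basic helix-loop-helix factor of cardiac progenitors, was at 0.499, 0.309, 0.567 and 0.224 CPM in ESC and at 7.09, 9.34, 1.43 and 6.29 CPM in Eo-, with the lowest Eo- value in replicate 5 (log2 fold change 3.72 ± 1.17, adjusted p = 0.013). Tbx6 and Msgn1, which specify presomitic mesoderm, rose by 2.81 ± 0.61 and 2.90 ± 0.72 (adjusted p = 0.0013 and 0.0033). Lhx1, a LIM homeobox factor of anterior mesendoderm, rose from 5.44 ± 3.76 to 23.4 ± 7.01 CPM (log2 fold change 2.31 ± 0.47, adjusted p = 7.9e-04). Mixl1 and Gsc, homeobox genes of the streak and its anterior end, were not called (log2 fold change 0.55 ± 0.59 (adjusted p = 0.43) and 0.40 ± 0.44 (adjusted p = 0.45)). Sp5, a direct target of Wnt signalling, fell by 1.25 ± 0.41 (adjusted p = 0.017), and this call was lost without Eo- replicate 5.

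Most streak genes were higher still in the sorted positive cells. In Eo+ libraries 12 of the 15 genes were higher than in Eo- and 1 was lower, beside 23.0% and 24.6% of all tested loci. The 12 include Eomes, the gene used for the sort, whose direction was set by the sort. Mixl1 was at 26.9, 24.8, 6.93 and 21.9 CPM in Eo- and at 274, 488, 222 and 432 CPM in Eo+ libraries, a log2 difference of 4.22 ± 0.46, adjusted p = 9.7e-06. Lhx1 reached 602 ± 181 CPM in Eo+, higher by 4.69 ± 0.30, adjusted p = 1.6e-07. An exception was Msgn1, with 16.7 ± 9.40 CPM in Eo- against 16.3 ± 6.42 CPM in Eo+ (log2 difference 0.09 ± 0.52, adjusted p = 0.9).

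Genes of the node and of the axial mesoderm, the organizer at the anterior end of the streak, rose in 4 of 6 cases, with 2 not called and a median log2 fold change of 2.36. Shh (XLOC_054817, chromosome 5, 28456815 to 28467101, minus strand), the Hedgehog ligand of the notochord, was at 0.0848, 0.0922, 0.0766 and 0.0501 CPM in ESC and at 8.90, 8.31, 14.2 and 7.78 CPM in Eo- libraries. All Eo- libraries lay far above ESC, and the rise was 6.98 ± 0.93 (adjusted p = 2.2e-05). Eo+ libraries held 5.47, 1.68, 14.4 and 3.13 CPM and overlapped with Eo-, where 45.9% of all tested loci did not overlap (log2 difference -1.08 ± 0.44, adjusted p = 0.056, and -0.92 ± 0.31, adjusted p = 0.029 with the replicate number as a block). Chrd, which encodes the BMP inhibitor chordin, rose by 2.27 ± 0.31, Foxa2, a forkhead factor of node and endoderm, by 2.45 ± 0.34, and Foxj1, the regulator of motile cilia, by 2.81 ± 0.26. These 3 were higher again in Eo+, by 2.14 ± 0.21, adjusted p = 3.9e-06 for Chrd, 2.78 ± 0.22, adjusted p = 7.2e-07 for Foxa2 and 2.11 ± 0.17, adjusted p = 7.7e-07 for Foxj1. Noto, a node gene, lies on a locus joined to Smyd5 and its level of 156 CPM in Eo- cannot be assigned to it.

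Definitive endoderm genes rose in 3 of 7 cases, the other 4 were not called, and the median log2 fold change was 0.90. Cer1, a secreted inhibitor of Nodal, BMP and Wnt, was at 0.3, 0.261, 1.14 and 0.5995 CPM in ESC and at 16.0, 18.0, 13.5 and 19.3 CPM in Eo- libraries, a rise of 5.11 ± 0.54 (adjusted p = 3.0e-06). Sox17, the HMG-box factor of endoderm and of hemogenic endothelium, was at 0.677, 0.564, 0.817 and 0.482 CPM in ESC and at 8.43, 3.41, 2.05 and 3.28 CPM in Eo-, with the highest value in replicate 1 (log2 fold change 2.59 ± 0.51, adjusted p = 5.6e-04). Without that library Sox17 rose by 2.18 ± 0.43, adjusted p = 8.7e-04. Gata6 had a log2 fold change of 0.85 ± 0.39 (adjusted p = 0.072), and was called higher with edgeR, DESeq2, without Eo- replicate 5 and with the block (0.88 ± 0.31, adjusted p = 0.029), under which 6 of the 7 genes rose. Eo+ exceeded Eo- in all 7 genes, and Cer1 reached 271 ± 94.6 CPM there (log2 difference 3.97 ± 0.25, adjusted p = 1.6e-07).

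Cardiac and lateral mesoderm genes moved in both directions. The 11 tested genes summed to 24.5 to 46.8 CPM in ESC, 17.1 to 62.9 CPM in Eo- and 288 to 634 CPM in Eo+ libraries. Of these genes 4 rose, 3 fell and 4 passed the test in neither direction, with a median log2 fold change of 1.405. With edgeR, DESeq2 or the replicate number as a block 7 rose. Gata4, a zinc finger factor of heart and endoderm, was at 3.50, 2.45, 2.01 and 2.44 CPM in ESC and at 10.47, 4.94, 2.61 and 6.36 CPM in Eo- libraries (log2 fold change 1.10 ± 0.49, adjusted p = 0.064), and without Eo- replicate 1 the change was 0.77 ± 0.49, adjusted p = 0.19. Hand1, a basic helix-loop-helix factor of lateral mesoderm, was at 2.41, 2.06, 3.12 and 0.925 CPM in ESC and at 23.6, 4.41, 2.62 and 10.9 CPM in Eo-, highest in replicate 1 (log2 fold change 1.94 ± 1.02, adjusted p = 0.11), and without that library the change was 1.35 ± 1.05, adjusted p = 0.29. Both genes were called higher with edgeR, DESeq2, the 8 libraries alone and the block, where the log2 fold change was 1.16 ± 0.21, adjusted p = 5.4e-04 for Gata4 and 2.23 ± 0.42, adjusted p = 8.5e-04 for Hand1. Nkx2-5, the early cardiac homeobox gene, fell by 2.47 ± 0.45 from a level of 0.926 ± 0.257 CPM. Eo+ exceeded Eo- by 4.78 ± 0.34, adjusted p = 4.0e-07 for Gata4 and by 2.75 ± 0.70, adjusted p = 0.0053 for Hand1. Tbx5 and Tnnt2 were below the filter on low values and Foxf1 was not analysed here.

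Posterior identity genes showed no common rise. Of 9 caudal and Hox genes 3 fell and the other 6 were not called, with a median log2 fold change of -0.23. Cdx1, a caudal homeobox gene, was at 5.96, 14.9, 11.5 and 11.02 CPM in ESC and at 0.342, 0.430, 0.113 and 0.373 CPM in Eo- libraries, and fell by 5.17 ± 0.51 (adjusted p = 1.7e-06). Cdx2 was at 35.1, 11.6, 4.96 and 18.6 CPM in Eo-, lowest in replicate 5 and highest in replicate 1, and was not called against ESC (log2 fold change 0.90 ± 0.55, adjusted p = 0.17). Its call appeared without Eo- replicate 5 and with the replicate block (1.12 ± 0.43, adjusted p = 0.04), under which 2 genes of the list rose, and without Eo- replicate 1 the log2 fold change was 0.44 ± 0.49, adjusted p = 0.46.

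Blood and endothelial genes had a median log2 fold change of 2.69 over 16 genes, of which 9 rose, 1 fell and 6 were not called. The summed level was 329 CPM in Eo- replicate 1, 45.2 to 82.9 CPM in Eo- replicates 2, 5 and 6, and 55.5 to 83.9 CPM in ESC. Without Eo- replicate 1, 7 rose and 1 fell, with a median of 1.96. The embryonic globin gene Hbb-bh1 was at 0, 0.0151, 0 and 0.0219 CPM in ESC and at 76.2, 1.56, 1.93 and 2.73 CPM in Eo- libraries. It rose by 10.58 ± 4.17 (adjusted p = 0.04), and by 9.22 ± 2.59, adjusted p = 0.0083 without Eo- replicate 1. Hbb-bh1 was at 0 in ESC replicates 1 and 5, so the size of the fold is uncertain, and its call was lost when any ESC library was left out. Hba-x, the embryonic alpha-like globin, was also highest in replicate 1, at 16.8, 0.787, 0.333 and 1.18 CPM in Eo-.

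The same library was highest for endothelial and hematopoietic regulators. Kdr, the receptor for vascular endothelial growth factor on blood and vessel progenitors, was at 3.89, 2.15, 2.83 and 1.30 CPM in ESC and at 54.1, 17.8, 7.51 and 15.4 CPM in Eo-. Kdr rose by 2.96 ± 0.88 (adjusted p = 0.01), and by 2.42 ± 0.82, adjusted p = 0.022 without replicate 1. Tal1, a basic helix-loop-helix factor required for all blood cells, was at 27.1, 7.38, 3.69 and 9.48 CPM in Eo- against 1.01 ± 0.175 CPM in ESC (log2 fold change 3.23 ± 0.99, adjusted p = 0.011, and 2.68 ± 0.97, adjusted p = 0.03 without replicate 1). VE-cadherin, Cdh5, was at 0.379, 0.271, 0.533 and 0.194 CPM in ESC and at 40.9, 6.78, 2.96 and 6.47 CPM in Eo- (log2 fold change 4.75 ± 1.17, adjusted p = 0.003, and 3.96 ± 0.87, adjusted p = 0.0017 without replicate 1). Eo+ was lower than Eo- in Cdh5 by the fit with the replicate number as a block (log2 difference -1.13 ± 0.33, adjusted p = 0.015) and was not called without it (-1.13 ± 0.79, adjusted p = 0.25).

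Other members of the list showed a peak in replicate 1 without a call, or no such peak. Gata1, the regulator of red cells, was at 7.93, 0.929, 1.15 and 1.29 CPM in Eo- and at 1.34, 0.882, 1.05 and 1.08 CPM in ESC (log2 fold change 0.77 ± 0.72, adjusted p = 0.36), and without replicate 1 the log2 fold change was 0.04 ± 0.60, adjusted p = 0.96. It was called higher with the block (1.07 ± 0.38, adjusted p = 0.029). Etv2, which starts the blood and vessel program, was at 3.92, 3.58, 5.83 and 5.73 CPM in ESC and at 8.53, 13.7, 7.08 and 11.4 CPM in Eo-, where replicate 2 was the highest. It had a log2 fold change of 1.09 ± 0.62 (adjusted p = 0.14) and was called with edgeR, DESeq2, the 8 libraries alone and the block (1.11 ± 0.35, adjusted p = 0.017). Pecam1, an adhesion molecule that vessels share with ESCs, fell by 1.64 ± 0.39 (adjusted p = 0.0025).

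**Figure D3:**
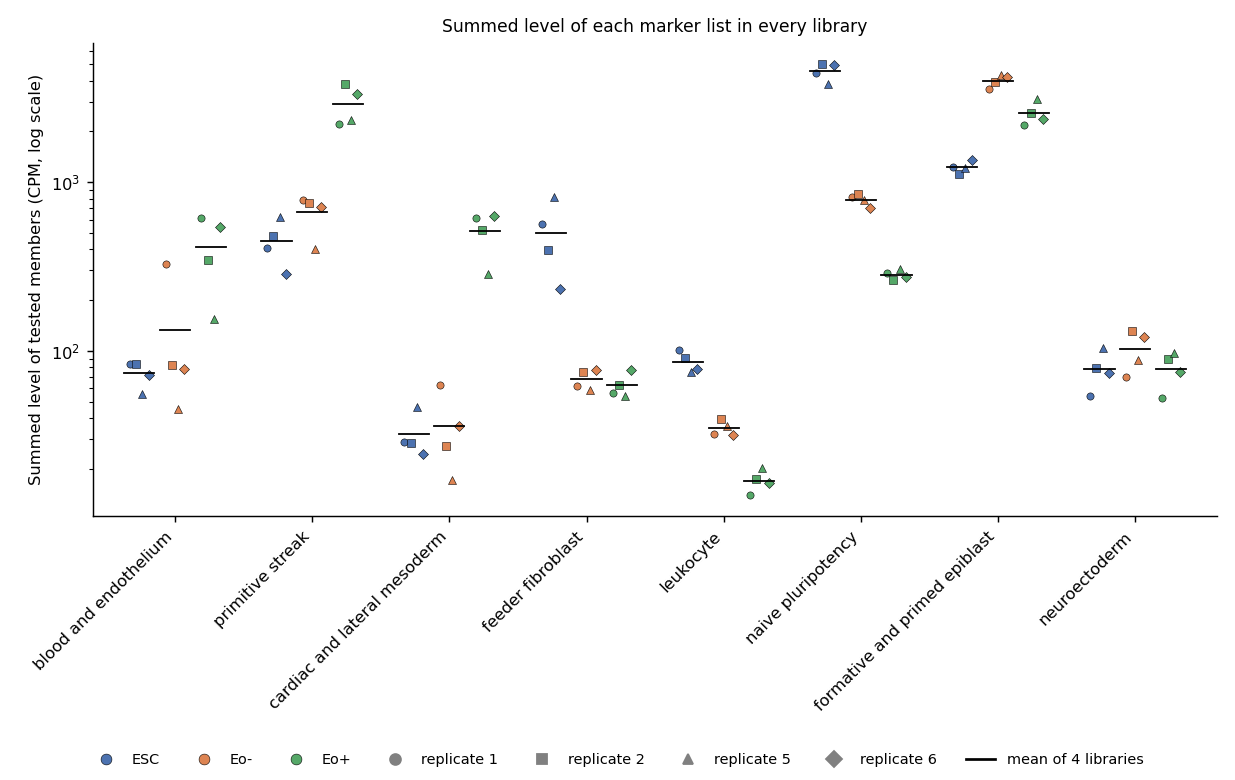
Summed CPM of the tested members of 8 marker lists in every library, on a log axis, with groups as colours, replicate numbers as shapes and means as bars. Eo- replicate 1 lies at 329 CPM for blood and endothelium, the feeder fibroblast list is highest in ESC, and the naive and the formative lists separate Eo- from ESC without overlap.

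Markers of visceral endoderm and trophoblast, tissues outside the epiblast, gave no common direction. Of 13 visceral endoderm genes 3 rose, 1 fell and 9 passed the test in neither direction, with a median log2 fold change of 0.22. Apoa1, an apolipoprotein, was at 2.82, 0.446, 0.796 and 0.924 CPM and Afp, alpha-fetoprotein, at 0.441, 0.0120, 0.0755 and 0.0132 CPM in Eo- libraries, again with the highest values in replicate 1. Neither was called (log2 fold change 2.60 ± 1.15 (adjusted p = 0.064) and -0.26 ± 1.504 (adjusted p = 0.89)). Without replicate 1 the values were 2.07 ± 1.19, adjusted p = 0.15 for Apoa1 and -1.35 ± 1.61, adjusted p = 0.49 for Afp. Apoa1 was called higher with edgeR, DESeq2, no filter, the 8 libraries alone, without Eo- replicate 2 and with the block (2.88 ± 0.50, adjusted p = 4.6e-04). With the block 5 genes of the list rose and 2 fell. Of the 4 tested trophoblast genes 1 rose, 2 fell and 1 passed the test in neither direction, with a median log2 fold change of -0.88. Tfap2c, an AP-2 factor of trophoblast and of ESCs, fell from 46.0 ± 5.35 to 7.43 ± 4.32 CPM (log2 fold change -2.76 ± 0.24, adjusted p = 6.4e-07), and Gata3, on a locus shared with a noncoding gene, rose by 1.42 ± 0.41. Elf5, Tpbpa and Prl3d1 were below the filter.

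Neural ectoderm genes did not rise as a group. Of 10 tested genes 2 rose, 5 fell and 3 passed the test in neither direction, with a median log2 fold change of -0.44. Pax6, a paired homeobox factor of neural progenitors, was at 9.36, 6.57, 7.78 and 6.31 CPM in ESC and at 0.468, 0.488, 0.723 and 0.701 CPM in Eo- libraries. It fell without overlap by 3.68 ± 0.20 (adjusted p = 1.1e-08). Sox1, the earliest marker of the neural plate, whose locus also holds a noncoding gene, was at 1.80, 1.06, 1.09 and 1.09 CPM in ESC and at 0.308, 0.717, 0.534 and 0.555 CPM in Eo-, and fell by 1.29 ± 0.27 (adjusted p = 9.5e-04). Rax, a homeobox gene of the eye and forebrain field, rose by 1.82 ± 0.57, to 0.799 CPM. The intermediate filament gene Nes was at 38.5, 67.0, 89.6 and 62.2 CPM in ESC and at 64.5, 127, 82.4 and 115 CPM in Eo- (log2 fold change 0.61 ± 0.27, adjusted p = 0.063), and was called higher with library totals, with the block (0.60 ± 0.15, adjusted p = 0.005) and without ESC replicate 5 or Eo- replicate 1.

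Several neural genes nonetheless had higher levels in Eo- than in Eo+ libraries. Pax6 was at 0.0741, 0.0819, 0.0934 and 0.0679 CPM in Eo+, lower than in Eo- by a log2 difference of -2.87 ± 0.34, adjusted p = 1.8e-05. Sox1 was lower in Eo+ as well, with a log2 difference of -3.21 ± 0.43, adjusted p = 5.0e-05. In all, 5 of the 10 genes were lower and 1 was higher in Eo+ than in Eo-, while 5 of the 10 fell and 2 rose from ESC to Eo-. With the replicate number as a block 6 were lower and 1 was higher in Eo+ than in Eo-. In the filter that asks for at least 1 CPM in 4 libraries only 1 gene each rose and fell, and the median was 0.77. Of the 4 tested genes of non-neural ectoderm 3 fell and 1 rose. That 1 was Tfap2a, an AP-2 factor of surface ectoderm and neural crest, which rose by 0.73 ± 0.23 (adjusted p = 0.014) from 1.12, 1.05, 1.34 and 1.39 CPM in ESC to 3.14, 1.90, 1.44 and 1.89 CPM in Eo- libraries.

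**Figure D4:**
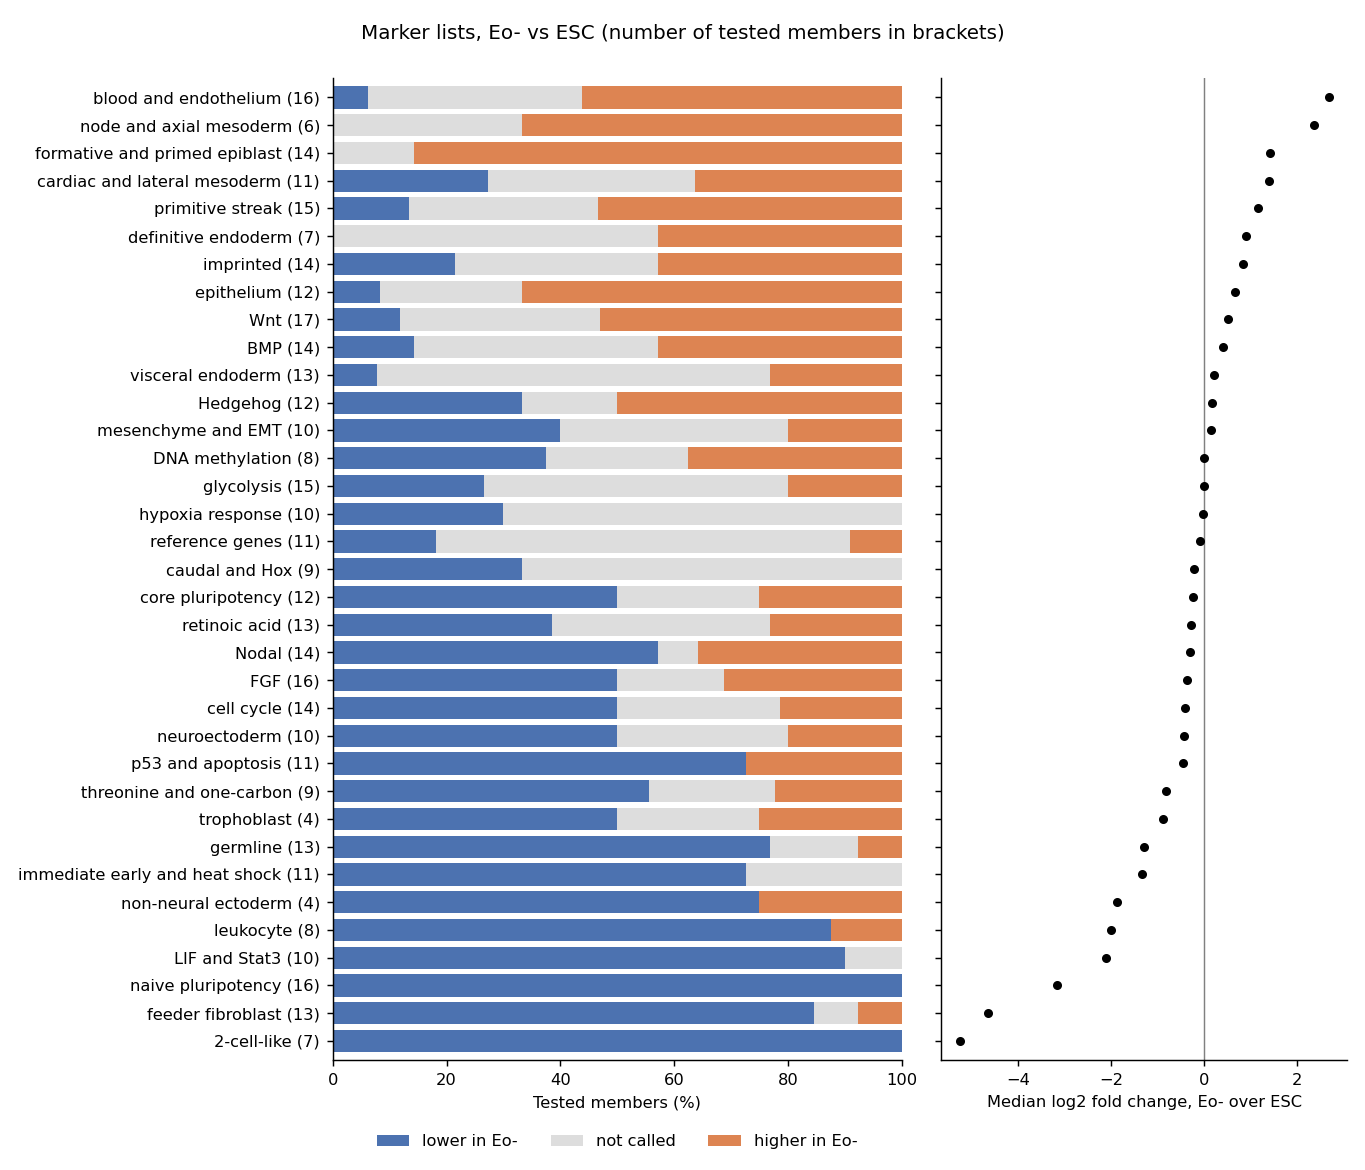
For 35 marker lists, the percentage of tested members called higher, called lower or not called in Eo- against ESC (left) and the median log2 fold change of the list (right), with the number of tested members in brackets. Formative and primed epiblast, node, and blood and endothelium lie at the upper end, with medians of 1.41, 2.36 and 2.69, and the naive, feeder fibroblast and 2-cell-like lists at the lower end.

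Among signalling pathways, those of the Nodal pathway moved in both directions, with Lefty1, Lefty2 and the co-receptor Tdgf1 lower and 2 receptors higher. Nodal, a ligand of the TGF-beta family that patterns the epiblast, signals through the activin receptors Acvr1b and Acvr2b with the co-receptor Tdgf1, and induces its own inhibitors Lefty1 and Lefty2. Of 14 genes 5 rose, 8 fell and 1 passed the test in neither direction, with a median log2 fold change of -0.32. Lefty1 was at 300.5, 373, 272 and 316 CPM in ESC and at 44.9, 23.0, 39.3 and 29.9 CPM in Eo- libraries, and fell by 3.24 ± 0.25 (adjusted p = 2.4e-07). Lefty2, on a locus joined to another gene, fell by 1.35 ± 0.16. Tdgf1 fell by 1.15 ± 0.19 to 407 ± 35.0 CPM, and was at 1299 ± 422 CPM in Eo+ (log2 difference 1.62 ± 0.18, adjusted p = 1.4e-05).

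Nodal itself changed little. Its level was 108, 121, 102 and 97.2 CPM in ESC and 88.3, 93.8, 70.3 and 81.8 CPM in Eo- libraries, and it fell by 0.36 ± 0.14 (adjusted p = 0.035), a call that was lost with edgeR, with library totals, with the block (-0.36 ± 0.15, adjusted p = 0.051) and without any of 4 single libraries. Gdf3, a related ligand of pluripotent cells, fell from 132 ± 7.78 to 22.4 ± 1.81 CPM (log2 fold change -2.57 ± 0.13, adjusted p = 6.3e-09). The receptors Acvr2b and Acvr1b rose by 1.10 ± 0.07 and 0.91 ± 0.10, and Furin, a protease that processes Nodal, by 0.93 ± 0.16. Against Eo-, Lefty1 was higher in Eo+ by 0.86 ± 0.27, adjusted p = 0.019, and Nodal was lower with a log2 difference of -0.78 ± 0.15, adjusted p = 6.8e-04.

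In the FGF pathway, 5 of 16 genes rose and 8 fell. The epiblast ligands Fgf5 and Fgf8 rose as described, and Fgf4 of naive cells fell. Fgf15, another ligand, rose by 0.75 ± 0.29 (adjusted p = 0.035), a call that was lost without any of 5 single libraries. Feedback targets gave no common direction. Spry4, an inhibitor of receptor signalling, fell from 109 ± 17.6 to 39.8 ± 4.76 CPM (log2 fold change -1.45 ± 0.16, adjusted p = 4.5e-06). Dusp6, a phosphatase induced by ERK, was at 129, 91.9, 137 and 101 CPM in ESC and at 121, 115, 93.3 and 124 CPM in Eo- (log2 fold change -0.01 ± 0.18, adjusted p = 0.97).

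Wnt pathway genes rose in 9 of 17 cases and fell in 2, with a median log2 fold change of 0.51. Dkk1, a secreted inhibitor of Wnt, was at 1.28, 0.820, 1.19 and 0.379 CPM in ESC and at 11.1, 6.88, 7.002 and 8.46 CPM in Eo- libraries, a rise of 3.29 ± 0.43 (adjusted p = 2.0e-05). Lgr5, a receptor for R-spondins and a target of the pathway, rose by 3.37 ± 0.33, and the transcription factor Tcf7 by 0.89 ± 0.06 without overlap. Axin2, the feedback target most used as a readout, rose by 0.51 ± 0.20 (adjusted p = 0.042), and this call was lost in 10 of 17 alternatives. Notum, which inactivates Wnt ligands, fell from 47.2 ± 14.6 to 5.89 ± 1.88 CPM (log2 fold change -3.01 ± 0.27, adjusted p = 7.5e-07). The ligand Wnt3, which the streak needs, was at 11.8, 19.4, 25.5 and 6.85 CPM in ESC and at 24.4, 19.9, 10 and 20.7 CPM in Eo- (log2 fold change 0.32 ± 0.38, adjusted p = 0.47), and was higher in Eo+ by 2.00 ± 0.32, adjusted p = 2.0e-04.

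Of 14 BMP genes 6 rose, 2 fell and 6 passed the test in neither direction, with a median log2 fold change of 0.41. Bmp4, the ligand that starts mesoderm and germ cell formation, was at 35.5, 30.3, 36.5 and 20.3 CPM in ESC and at 20.7, 11.2, 8.75 and 10.1 CPM in Eo- libraries, with replicate 1 again the highest of Eo-. It fell by 1.32 ± 0.50 (adjusted p = 0.032), a call that was lost without any of 6 single libraries. The BMP targets Id1 and Id2 were not called (log2 fold change 0.27 ± 0.23 (adjusted p = 0.34) and 0.02 ± 0.25 (adjusted p = 0.96)). Id1 was called higher without Eo- replicate 5, and Id3 rose by 0.37 ± 0.10 (adjusted p = 0.0065). Grem1, a BMP inhibitor that fibroblasts secrete, fell by 4.84 ± 0.65 from ESC values of 26.4, 6.72, 17.8 and 5.28 CPM, highest in replicates 1 and 5, the libraries with the highest summed feeder list. The part of feeder RNA in this fall was not tested. Eo+ cells were higher than Eo- in 12 of the 14 genes.

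Hedgehog genes changed in opposite directions. Of 12 genes 6 rose, 4 fell and 2 passed the test in neither direction, with a median log2 fold change of 0.17. Smo, the signal transducer of the pathway, was at 31.3, 39.7, 34.2 and 36.6 CPM in ESC and at 114, 124, 112 and 136 CPM in Eo- libraries, a rise of 1.78 ± 0.12 (adjusted p = 5.8e-08) without overlap. Gli1, a transcription factor that is itself a target of the pathway, was at 86.5, 90.2, 53.6 and 63.9 CPM in ESC and at 13.6, 12.9, 13.9 and 15.1 CPM in Eo-, and fell by 2.38 ± 0.17 (adjusted p = 1.2e-07). Gli2 fell by 1.63 ± 0.14, Hhip, another target, fell by 2.21 ± 0.51, and Ptch1 was not called (log2 fold change -0.44 ± 0.21, adjusted p = 0.085), though it was called lower with DESeq2 and without ESC replicate 5. The ligand Shh thus rose where the targets Gli1 and Hhip fell.

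Retinoic acid genes were mixed as well, with 3 of 13 higher, 5 lower and 5 not called. Cyp26a1, which degrades retinoic acid, was at 8.67, 7.51, 19.02 and 2.84 CPM in ESC and at 37.8, 24.9, 15.5 and 30.1 CPM in Eo- libraries. The groups overlapped through ESC replicate 5, and the rise was 1.72 ± 0.43 (adjusted p = 0.0033), with a further 4.06 ± 0.30, adjusted p = 4.3e-07 from Eo- to Eo+. Stra8, a target of retinoic acid that starts meiosis, was at 4.13, 20.99, 6.46 and 13.7 CPM in ESC and at 0.0981, 0.262, 0.302 and 0.257 CPM in Eo-, and fell by 5.45 ± 0.74 (adjusted p = 2.8e-05). The synthetic enzyme Aldh1a2 had 2.30 ± 1.01 CPM in Eo- (log2 fold change -0.76 ± 0.28, adjusted p = 0.028), and its call was lost with edgeR and without any of 5 single libraries.

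A metabolic gene with a known tie to the naive state fell. Tdh, threonine dehydrogenase, which mouse ESCs need for one-carbon supply, was at 619, 711, 542 and 551 CPM in ESC and at 105, 111, 103 and 87.7 CPM in Eo- libraries. It fell by 2.57 ± 0.13 (adjusted p = 8.7e-09), and Eo+ was lower again, with a log2 difference of -4.20 ± 0.23, adjusted p = 6.3e-08. Of 9 threonine and one-carbon genes 2 rose, 5 fell and 2 passed the test in neither direction, with a median log2 fold change of -0.82. Shmt2, the mitochondrial serine hydroxymethyltransferase, fell by 1.01 ± 0.15. Glycolysis genes showed no common direction, with 3 of 15 higher, 4 lower and 8 not called. The glucose transporter Slc2a3 fell by 1.25 ± 0.32, hexokinase 2, Hk2, by 0.86 ± 0.10, and the lactate exporter Slc16a3 rose by 1.13 ± 0.21. Of 10 genes of the hypoxia response 3 fell and the other 7 were not called. Vegfa, the vascular growth factor, was among those that fell, by 1.09 ± 0.27 (adjusted p = 0.0029).

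Cell cycle and stress genes fell more often than they rose. Of 14 cell cycle genes 3 rose, 7 fell and 4 passed the test in neither direction, with a median log2 fold change of -0.41. Mki67, a marker of cycling cells, rose by 0.28 ± 0.06 (adjusted p = 0.0019), Mycl, a member of the Myc family, rose from 22.7 ± 5.23 to 66.3 ± 8.59 CPM, and Mycn fell by 0.69 ± 0.15. Cdkn1a, the cell cycle inhibitor p21, fell by 0.77 ± 0.17. Of 11 p53 and apoptosis genes 8 fell and 3 rose. Mdm2, which degrades p53 and is its target, was at 196, 159.8, 172 and 145 CPM in ESC and at 78.1, 61.1, 65.9 and 65.9 CPM in Eo- (log2 fold change -1.31 ± 0.10, adjusted p = 1.8e-07). Bcl2l11, a pro-apoptotic gene joined to Acoxl in 1 locus, rose by 0.40 ± 0.09.

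In a list of immediate early and heat shock genes, which respond to growth factors, stress and handling, 8 of 11 tested loci fell, with 3 not called and a median log2 fold change of -1.34. Egr1 was at 276, 196, 233 and 309.8 CPM in ESC and at 44.6, 53.04, 68.7 and 77.7 CPM in Eo- libraries, and fell by 2.07 ± 0.19 (adjusted p = 9.4e-07). Fos was at 167, 125, 149 and 143 CPM in ESC and at 107, 46.8, 45.02 and 44.8 CPM in Eo-, where replicate 1 stood apart at 107 CPM, and it fell by 1.36 ± 0.26 (adjusted p = 4.1e-04). The Eo- cells passed through a cell sorter and no sort is described for the ESC samples used for RNA, so sorting and state cannot be told apart for these genes.

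Imprinted genes rose in 6 of 14 cases, fell in 3 and were not called in 5. Igf2, a growth factor expressed from the paternal allele, was at 46.1, 43.7, 75.4 and 22.3 CPM in ESC and at 562, 88.2, 93.1 and 139 CPM in Eo- libraries. Replicate 1 was the highest, the rise was 1.88 ± 0.65 (adjusted p = 0.022), and without that library it was 1.27 ± 0.54, adjusted p = 0.06. The call of Igf2 was also lost without ESC replicate 6. H19, the neighbouring noncoding gene, which shares its locus with a microRNA, was at 249, 45.6, 54.8 and 56.4 CPM in Eo- and 29.9 ± 2.07 CPM in ESC (log2 fold change 1.38 ± 0.69, adjusted p = 0.096). Without Eo- replicate 1 the log2 fold change was 0.80 ± 0.62, adjusted p = 0.29, and H19 was called higher with edgeR, DESeq2, the 8 libraries alone and the block (1.61 ± 0.38, adjusted p = 0.0033). Meg3, a noncoding RNA whose locus holds 3 further small genes, rose by 0.84 ± 0.13 without overlap, and Nnat, a membrane protein of neurons and endoderm, by 1.53 ± 0.21.

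Of 11 reference genes often used for normalization 1 rose, 2 fell and 8 were not called, with a median log2 fold change of -0.09. Ppia, cyclophilin A, was at 2183, 2325, 2337 and 2447 CPM in ESC and at 2005, 2260.2, 2400.3 and 2184 CPM in Eo- libraries (log2 fold change -0.07 ± 0.06, adjusted p = 0.34). Hprt fell by 0.31 ± 0.07, and Gusb rose by 0.63 ± 0.10.

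The largest rises among called genes with 1 reference gene name, whose groups did not overlap and of which the higher averaged 10 CPM or more, were, in order, those of Hbb-bh1, Hapln1, Cer1, Cdh5, Pkd1l1, Car14, Slc35d3, Rgl3, Zfp467 and Car4. Without Eo- replicate 1 the Eo- mean would have been 2.07 CPM for Hbb-bh1, 2.28 CPM for Hapln1 and 5.40 CPM for Cdh5, below the minimum of 10 CPM, so these 3 are in the order through that library. Hapln1, a linker protein of hyaluronan matrix, was at 0.213, 0.0770, 0.184 and 0.0470 CPM in ESC and at 37.8, 2.37, 1.80 and 2.66 CPM in Eo-, mostly in replicate 1 (log2 fold change 5.38 ± 1.88, adjusted p = 0.023, and 4.32 ± 1.53, adjusted p = 0.027 without that library). Its call was lost when any ESC library was left out. Pkd1l1, which acts in the flow sensing of the node, was at 0.596, 0.294, 0.578 and 1.02 CPM in ESC and at 14.3, 13.3, 17.0 and 14.2 CPM in Eo- libraries. The Eo- values lay close together, and it rose by 4.70 ± 0.43 (adjusted p = 8.3e-07). The carbonic anhydrases Car14 and Car4 rose by 4.47 ± 0.21 and 3.60 ± 0.22. Slc35d3, a transporter of nucleotide sugars, rose by 4.26 ± 0.24, to 11.02, 10.3, 16.2 and 13.3 CPM in Eo-, and was lower in Eo+ with a log2 difference of -1.96 ± 0.19, adjusted p = 3.9e-06.

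The largest falls under the same rule were those of S100a4, Mgp, Bgn, Lox, Inhbb, Inhba, Tnc, Myo1f, Emp1 and Anxa1. S100a4, a calcium-binding protein used to mark fibroblasts, was at 21.3, 8.09, 13.3 and 6.79 CPM in ESC and at 0.0135, 0.0147, 0.00559 and 0.00926 CPM in Eo- libraries. It fell by 10.04 ± 1.07 (adjusted p = 3.1e-06). Mgp, Bgn, Lox and Tnc encode proteins of the extracellular matrix, and their ESC levels were highest in replicates 1 and 5, the libraries with the highest summed feeder list. The same held for S100a4, Inhba, Emp1 and Anxa1, whereas Inhbb and Myo1f were highest in ESC replicate 2, at 27.8 and 17.0 CPM. Bgn, biglycan, was at 152, 47.1, 97.2 and 52.3 CPM in ESC and at 1.06, 0.412, 0.590 and 0.388 CPM in Eo-. Of the 10 genes 2, S100a4 and Lox, belong to the feeder fibroblast list, whose summed level was 233 to 816 CPM in ESC and 58.9 to 76.6 CPM in Eo-, and the part of feeder RNA in these falls was not tested. Of 8 tested leukocyte genes 7 fell and 1 rose, and Lyz2, counted together with Lyz1, went from 12.8, 8.17, 7.44 and 4.31 CPM in ESC to 0.275, 0.0427, 0.0587 and 0.0608 CPM in Eo-. Thy1, a surface protein of the feeder list that early embryonic and neural cells also carry, was the 1 feeder gene that rose, by 0.62 ± 0.20 (adjusted p = 0.015). The call of Thy1 was lost without ESC replicate 2.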

How the data were processed

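Paired stranded RNA-Seq reads of 12 libraries were mapped by the authors to mm10 with STAR, transcripts were assembled with Cufflinks 2.2.1 and merged with the reference annotation, and reads were counted per merged locus with HTSeq 0.6.1. The tool versions and that of STAR, 2.0.4, are those of the submitters' processing notes. The deposited values used here are these raw counts. A deposited table of normalized values, the same counts divided by a constant per library, was not used. Reads without a unique position were left uncounted and made up 22.4 to 26.2% of the read pairs, and reads outside every locus 2.65 to 3.6%. These and the other tally lines stayed out of library sizes and tests.

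Loci were named from the reference gene name of their transcripts in the deposited annotation, where the transcript was identical to or shared a junction with a reference transcript, and 97.7% of the matched reference transcripts were found in GENCODE M21. Coordinates are those of the merged loci in the deposited annotation in mm10, and a locus can be wider than the gene it is named after. Where a locus held several names, its counts cannot be divided between them.

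Loci of protein coding genes, annotated lncRNAs and transcripts outside the reference annotation (at least 2 exons and 200 bp) with a mean FPKM above 0.1 in at least 1 group were tested. Counts were scaled by TMM (edgeR 4.0.16), weighted with voom and fitted with limma 3.58.1 in R 4.3.3, with 1 mean per group over all 12 libraries. Eo- was compared with ESC and Eo+ with Eo-, at an adjusted p of at most 0.05 by Benjamini-Hochberg over 17936 loci. The scripts were tested on simulated counts. Totals of 648413022 to 837308168 counts per library make counting error small, so the spread between 4 libraries limits the precision, and floors cover counting error only. These totals exceed the reads per sample that the methods state, a difference that was not resolved.

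Alternatives were edgeR's quasi-likelihood test, DESeq2 1.42.0, its size factors in voom, library totals, other filters, the 8 libraries alone, loci with a reference name alone, a replicate block and each library left out. Deviations of same-numbered Eo- and Eo+ libraries from their group means correlated in all 4 pairs, with r from 0.243 to 0.581. In 3 of the 4 pairs the own number gave the highest r, while Eo- replicate 2 reached 0.25 with another Eo+ library. These numbers were taken to pair the sorted fractions. Between ESC and Eo- r ranged from -0.121 to 0.532. The methods name 4 differentiation sets with samples of all groups but do not tie the numbers to them, so the fit without the block was kept and blocked values are given in the report beside the comparisons printed there whose call changed.

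The 35 gene lists, of 405 genes, and the choice of the comparison were made with earlier results of these data known. Of these genes 387 were tested, 16 were below the filter and 2, Foxf1 and Tubb3, were not analysed here. Genes named are the 10 largest rises and falls with 1 reference gene name, groups that did not overlap and 10 CPM or more in the higher of them, key genes of each list, the largest called change of each list and Eomes. A further 48 genes were named after their values were seen, and some list members are counted but not reported here by name. Promoters of 27025 genes came from RefSeq (GRCm38.p6), in which 11 motifs were searched on both strands within 250 bases before each start.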

Additional observations from a re-analysis of the deposited data

Results flagged for a closer look

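In each group of 4 libraries the gap of the highest or lowest library to its nearest neighbour was divided by the range of the group, and 54 of 562 sets of 4 values (9.61%) passed Dixon's critical value, where chance passes about 5% of sets. These sets include 48 genes that were named after their values were seen, so the share and the counts are partly fixed by that choice. Of the 51 sets that are single genes, 31 had Eo- replicate 1 as the library that stood apart, 26 times as the highest and 5 times as the lowest.

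Blood and endothelial genes were highest in Eo- replicate 1, at a summed 329.1 CPM, where replicates 2, 5 and 6 lay between 45.17 and 82.89 CPM. The globin genes Hbb-bh1 and Hba-x were at 76.23 and 16.85 CPM there, Gata1 at 7.933 CPM and the platelet integrin gene Itga2b at 20.43 CPM. The endothelial genes Cdh5, Tie1, Tek, Cd93 and Fli1 were at 40.94, 29.27, 17.54, 10.89 and 7.832 CPM. None of these genes exceeded 6.779 CPM in another Eo- library.

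The same library was also highest for genes of other groups. The imprinted genes Igf2 and H19 were at 561.9 and 248.9 CPM, against at most 139.2 CPM and 56.44 CPM in the other Eo- libraries. Of the visceral endoderm list Afp was at 0.4413 CPM, Cubn at 2.01 CPM and Apoa4 at 0.4254 CPM, while the sum of the list did not stand apart, at 93.3 CPM against 58.8 to 80.9 CPM. The trophoblast list summed to 23.11 CPM, with Tfap2c at 13.91 CPM. Prdm1 was at 16.21 CPM, Fos at 106.8 CPM, Mycn at 164.6 CPM and the Hedgehog ligand Ihh at 0.6215 CPM. Genes of matrix and mesenchyme were highest as well, with Hapln1 at 37.77 CPM, Tnc at 2.198 CPM, Col1a2 at 10.85 CPM, Col3a1 at 1.024 CPM, Zeb1 at 5.761 CPM and Zeb2 at 10.91 CPM. Lyz2 was at 0.2746 CPM. It was lowest for Car4 at 136.7 CPM, Mael at 6.659 CPM, the locus that Fgfr2 shares with Ctbp2 and Gm15718 at 244.3 CPM, Meg3 at 549.8 CPM and Pmaip1 at 62.65 CPM. The loci of H19, Zeb2, Lyz2, Meg3, Lefty2 and Sox1, given here by these names, also hold other genes.

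Other Eo- libraries stood apart in 5 genes and 1 list. Replicate 5 was lowest for Axin2 at 32.09 CPM, highest for Fgf4 at 38.75 CPM and highest in the germline list at 92.3 CPM. Replicate 6 was highest for Lin28a at 800.8 CPM and lowest for Lefty2 at 159.8 CPM. Replicate 2 was highest for Gsc at 5.326 CPM.

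Among ESC libraries replicate 1 was highest for Osmr at 3.421 CPM, the basophil protease gene Mcpt8 at 6.741 CPM, Sox1 at 1.802 CPM and Tek at 9.258 CPM. Replicate 2 was highest for Adm at 7.792 CPM and Crb3 at 10.51 CPM, and lowest for Sall2 at 14.38 CPM. Replicate 5 was highest for Fgf5 at 28.92 CPM and for Apoa4 at 0.00269 CPM, a level under 3 counts, and lowest for Pecam1 at 30.43 CPM and Hnf4a at 0.2592 CPM. Replicate 6 was highest for Apoa1 at 0.2504 CPM, Taf7l at 4.217 CPM and Tdrd1 at 4.628 CPM, and lowest for Snai1 at 4.654 CPM.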

How the results depend on the processing

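Of the 246 named genes 204 had the same call in every alternative tried, 42 changed call in at least 1 and no called gene changed direction. Of the 11164 called loci 10227 to 11067 kept their call in the alternatives that tested all of them. The share of calls that were higher in Eo- was 49.7%, between 45.3% and 55.3% in the alternatives except with no filter, where it was 36.6%, and with at least 2-fold required. With all 69928 loci of at least 1 count tested, which drops the FPKM filter and the limit to gene classes together (below, without the filter), 27830 were called, 10196 higher and 17634 lower. With at least 2-fold required 5076 were called, 2144 higher and 2932 lower, and 3621 with a reference name, 1787 and 1834. The causes of the changes below were not tested.

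With edgeR and with DESeq2 the caudal and Hox genes called higher were 1, cardiac 7 and visceral endoderm 5, and germline 0. Mesenchyme was 1 with edgeR, and without the filter 1, where germline was 0. With DESeq2, definitive endoderm was 5 higher, blood and endothelium 0 lower, glycolysis 1 higher and reference genes 5 lower. With its size factors in voom, germline was 0 higher, glycolysis 1 and reference genes 5 lower. With library totals, caudal was 2 higher, hypoxia 1, and the medians of epithelium and reference genes were 0.72 and -0.023. With the 8 libraries alone, caudal was 1 higher, and visceral endoderm 6 higher and 2 lower. With at least 1 CPM in 4 libraries, neuroectoderm was 1 higher and 1 lower with a median of 0.77, a reversal, non-neural ectoderm 1 lower with -0.83, Hedgehog 0.76, retinoic acid 0.014, also a reversal, feeder fibroblast -3.81 and reference genes 4 lower. With named loci alone reference genes were 4 lower.

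With the replicate block 11849 loci were called between Eo- and ESC, where libraries of 1 number may share a differentiation set (2 of 4 libraries correlated best with their own number), and caudal was 2 higher, cardiac 7, definitive endoderm 6, visceral endoderm 5 and 2 lower, LIF 1 higher and reference genes 2 higher. Between Eo+ and Eo-, which the numbers were taken to pair, the block called 9560 loci and added 23 calls among the named genes, and blood and endothelium went from 3 to 6 lower and from 5 to 7 higher.

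With single libraries left out, counts ranged from 1 to 2 lower for primitive streak, visceral endoderm, trophoblast and BMP, 1 to 3 lower for Wnt and 2 to 4 lower for reference genes. Counts higher ranged from 0 to 3 for caudal, 1 to 2 for mesenchyme and reference genes, 0 to 1 for germline, feeder fibroblast and hypoxia, and 1 to 4 for glycolysis. Medians ranged from 0.62 to 0.76 for epithelium, -1.34 to -1.18 for germline, -0.49 to -0.031 for retinoic acid, -0.93 to -0.72 for threonine and one-carbon and -0.60 to -0.39 for p53. Limits are the single reporter line, fibroblast transcripts in ESC, 1 Eo- library that stood apart, and 1254 named loci that hold several genes.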

Other observations

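Some genes had their highest level in Eo- cells, above ESC and Eo+ alike, and those named here were chosen after their values were seen. Of the 13969 tested loci with 1 reference gene name, 345 reached at least 10 CPM in Eo- and were called higher in Eo- than in both other groups without overlap. Myb, a transcription factor of hematopoietic and epithelial progenitors, was at 6.998, 4.32, 3.86 and 4.79 CPM in ESC, 37.9, 27.8, 43.0 and 30.5 CPM in Eo- and 7.55, 2.74, 5.79 and 3.02 CPM in Eo+ libraries. Enpp2, the secreted enzyme autotaxin that makes lysophosphatidic acid, was at 16.3 ± 6.37 CPM in ESC, 97.3 ± 14.6 CPM in Eo- and 17.5 ± 10.52 CPM in Eo+. The chemokine gene Cxcl12 was at 6.77 ± 2.17, 44.4 ± 3.60 and 12.1 ± 7.24 CPM in the same order. Arl4c, a small GTPase of the Arf family, was at 42.5 ± 7.63, 141 ± 15.0 and 42.5 ± 16.8 CPM.

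A further 277 of the loci with 1 reference gene name were called lower in Eo- than in both other groups without overlap, at 10 CPM or more in both. Besides Tbx3 these include Upp1, uridine phosphorylase, at 314, 457, 320.2 and 524 CPM in ESC, 71.5, 115, 79.8 and 68.3 CPM in Eo- and 277, 562, 354 and 470.2 CPM in Eo+ libraries. Ntn1, the secreted guidance protein netrin 1, was at 72.01 ± 4.09, 18.1 ± 4.02 and 70.0 ± 21.5 CPM. The Notch ligand gene Dll1 was at 16.0 ± 3.99, 4.99 ± 1.16 and 27.5 ± 15.1 CPM. Fbln2, a matrix protein that fibroblasts also make, was at 95.1, 29.9, 60.1 and 30.7 CPM in ESC, where the feeder list was also highest in replicates 1 and 5, and at 3.46, 3.29, 2.43 and 2.79 CPM in Eo- libraries, and the part of feeder RNA in this pattern was not tested.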
